A study of Homo sapiens with 2 samples.

Results

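ATP-binding cassette (ABC) transporters were followed in HT1080 cells, a human fibrosarcoma line, after 24 h in wells coated with rLCC111 or with BSA. rLCC111 is a recombinant fragment that holds the coiled-coil domain of laminin-111, made from truncated mouse laminin α1, β1 and γ1 chains, and BSA is the control protein. The members were all genes whose symbol is ABC followed by a subfamily letter from A to G and a number, together with TAP1 and TAP2, which belong to subfamily B. This gave 45 of the 18417 genes measured, with 12 in subfamily A, 10 in B, 11 in C, 3 in D, 1 in E, 3 in F and 5 in G. The data are 1 GeneChip Human Gene 1.0 ST array per coating, so no difference has a replicate check and no p-value is given. The number of arrays limits the precision of every value.

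ABC proteins couple the binding and hydrolysis of ATP to the movement of lipids, drugs, peptides, ions or metabolites across membranes, and each functional pump pairs a set of nucleotide-binding domains with a set of membrane domains. Members of subfamilies A and G include exporters that load cholesterol and phospholipids onto apolipoproteins, members of B, C and G include the multidrug exporters that lower drug levels in tumour cells, and members of E and F have no membrane domain and act on ribosomes. Several lipid exporters are classical targets of the liver X receptors (LXR), which sense oxidised cholesterol.

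Levels are log2 values after RMA, which subtracts background, brings the arrays to a common scale and combines the probes of a sequence. Differences are the level on rLCC111 minus that on BSA. The array medians were 7.12 on rLCC111 and 7.04 on BSA over 33297 sequences. As a guide to silent genes, a limit was set at 6.63, below which lay 95% of 373 olfactory, taste and vomeronasal receptor genes by their mean level. The differences of these receptor genes had an SD of 0.18, and 11 of them (2.95%) were at least 0.5 higher on rLCC111 while 0 were at least 0.5 lower. At least 2-fold higher were 2 of the 373, with a largest difference of 1.53, and 0 were 2-fold lower. Of 8 mesenchymal markers, 5 had levels above the limit, among them VIM at 12.98 on rLCC111 and 13.05 on BSA and CD44 at 13.11 on rLCC111 and 13.10 on BSA. FN1, SPARC and LOX were also above the limit, with differences of 0.49, 0.20 and -0.29. S100A4, THY1 and COL5A2 had neither array above it. Of the markers of other cells, 2 of 5 epithelial, 0 of 5 endothelial and 2 of 5 blood genes had an array above the limit, and none of these 15 genes differed by 0.5 between the coatings. The epithelial genes above it were CLDN3 and KRT19, and the blood genes CD79A and CD14. Of the ABC genes, 25 had both arrays above the limit and 20 had neither.

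ABCA1 and ABCC3 were the members that differed most between the coatings, and both were higher on rLCC111. ABCA1, which exports cholesterol and phospholipids to apolipoprotein A-I, was at a level of 8.18 on rLCC111 and 7.07 on BSA. The difference of 1.11, a fold of 2.16, placed it 35th from the top among all genes. ABCC3, which encodes the organic anion exporter MRP3, was at 9.07 on rLCC111 and 8.05 on BSA, a difference of 1.02 and a fold of 2.03, and stood 41st from the top. In cultures measured in bulk, fewer cells with a transcript and less of it per cell cannot be told apart. These were the 2 members at least 2-fold higher on rLCC111, or 4.44% of the family, beside 0.239% of all genes, and 0 members were at least 2-fold lower, beside 0.0869% of all genes. ABCA1 was also above 2-fold after each other scaling of the arrays, whereas ABCC3 had a difference of 0.94 after median centring and 0.96 after quantile normalization.

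A difference of at least 0.5 was reached by 1 more member in each direction. ABCA5, a lysosomal and endosomal member of subfamily A, was at 6.56 on rLCC111 and 5.87 on BSA, a difference of 0.69 with both levels below the limit. ABCC2, which encodes MRP2, the apical exporter of conjugated anions, was at 6.68 on rLCC111 and 7.20 on BSA, a difference of -0.52. Its level on rLCC111 thus lay just above the limit. This made 3 members (6.67%) at least 0.5 higher, beside 1.68% of all genes, and 1 member (2.22%) at least 0.5 lower, beside 1.0% of all genes. Differences of at least 0.3 upwards were found in 8 members (17.8%), beside 5.38% of all genes, and downwards in 1, ABCC2 (2.22%), beside 4.41% of all genes. These counts at 0.3 rested on the scaling. After median centring ABCA8 (0.28) and ABCC10 (0.22) fell short upwards, and ABCE1 (-0.36) and ABCG2 (-0.34) passed -0.3. After quantile normalization ABCC10 (0.25) fell short and ABCG2 (-0.34) passed -0.3. After lowess ABCC10 (0.29) fell short.

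Over the whole family 28 members (62.2%) had a difference above 0, 15 (33.3%) one below 0 and 2, ABCC13 and ABCG8, one of exactly 0. Among all genes 46.2% lay above 0 and 46.6% below. This split rested on the scaling, with 17 members above 0 and 28 below after median centring, 25 and 20 after quantile normalization and 29 and 16 after removal of a lowess trend. Among all genes 26.4% lay above 0 and 73.6% below after median centring, 34.1% and 65.8% after quantile normalization, and 44.2% and 55.8% after lowess. The median difference of the family was 0.05 as deposited, 0.01 after quantile normalization, 0.04 after lowess and -0.03 after median centring, beside 0.00, -0.06, -0.02 and -0.08 for all genes under the same scalings. Above the limit on at least 1 array were 12665 genes, the 25 members included. Of these members 2 were at least 2-fold higher and 0 lower, beside 0.324% and 0.126% of those genes. At 0.5, 2 were higher and 1 lower, beside 2.04% and 1.28%, and at 0.3, 6 were higher and 1 lower, beside 6.48% and 5.41%, all as deposited. A difference above 0 was found in 17 and one below 0 in 8, beside 46.7% and 50.3%. Of the 25 members, 22 lay inside -0.40 to 0.46, the middle 95% of the differences of these genes. ABCA1 and ABCC3 lay above this range and ABCC2 below it.

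**Figure D1:**
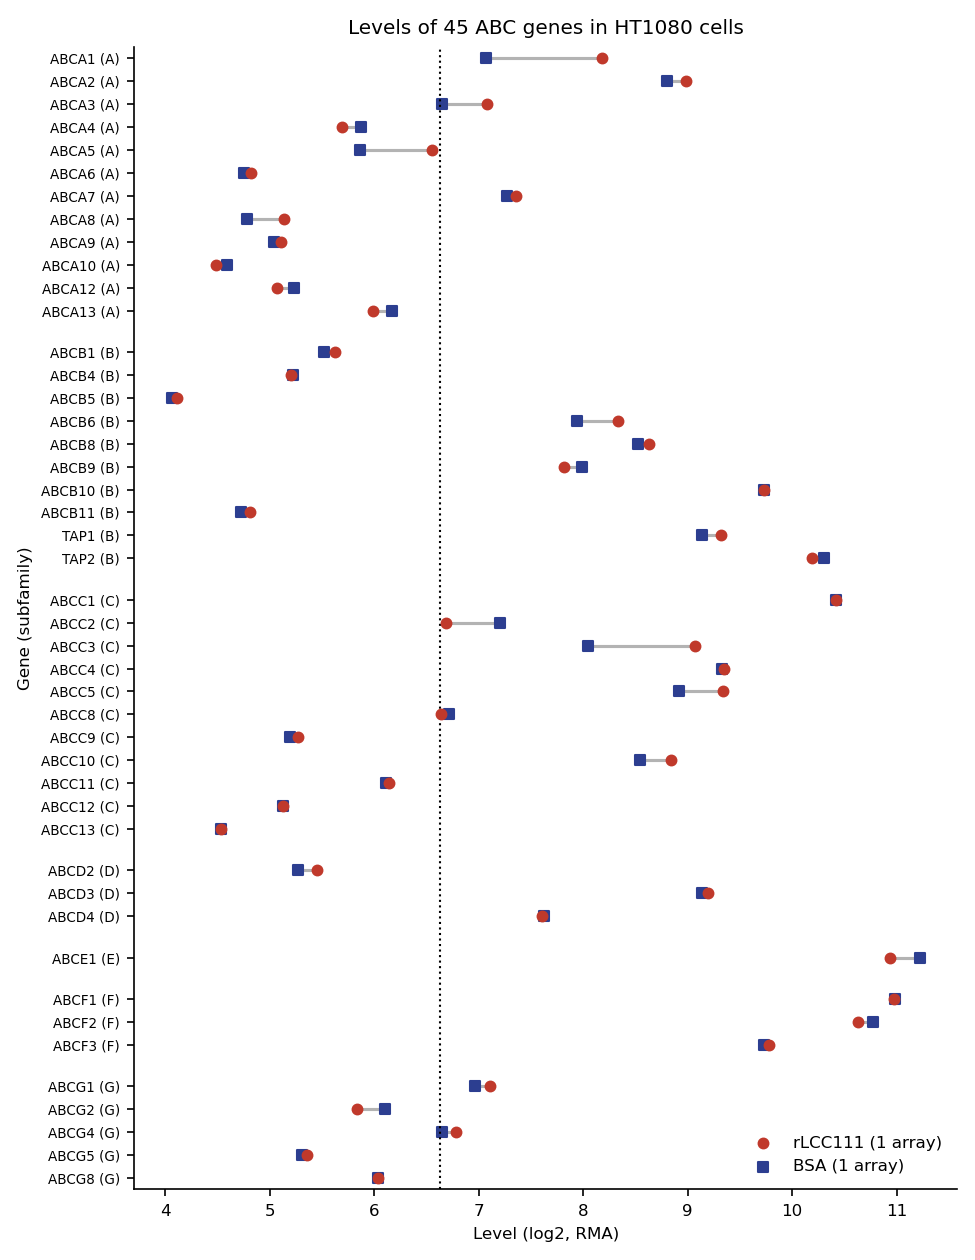
Level (log2, RMA) of 45 ABC genes on the rLCC111 array (red circles) and on the BSA array (blue squares), 1 array per coating, ordered by subfamily from A to G, with a grey line joining the pair and a dotted line at the limit of 6.63. The longest lines belong to ABCA1, at 8.18 on rLCC111 and 7.07 on BSA, and to ABCC3, at 9.07 on rLCC111 and 8.05 on BSA.

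The promoters of ABCA1 and ABCC2 are shown because these genes stand at opposite ends of the family. The windows are the 250 bases before the RefSeq start of ABCA1, whose window holds a match to a motif of LXR, and of ABCC2, the member with the most negative difference, both from GRCh38.p14. The ABCA1 window lies at chr9:104928156-104928405 on the minus strand and that of ABCC2 at chr10:99782390-99782639 on the plus strand, each written 5′ to 3′ with the last base next to the start. Capitals mark matches on either strand to GGGCGG (GC box), CACGTG (E-box), TATAAA (as in the TATA box) and a loose form of DR4, the direct repeat to which LXR binds with RXR, with GGTNA at both ends of the match and any bases between them.
ABCA1: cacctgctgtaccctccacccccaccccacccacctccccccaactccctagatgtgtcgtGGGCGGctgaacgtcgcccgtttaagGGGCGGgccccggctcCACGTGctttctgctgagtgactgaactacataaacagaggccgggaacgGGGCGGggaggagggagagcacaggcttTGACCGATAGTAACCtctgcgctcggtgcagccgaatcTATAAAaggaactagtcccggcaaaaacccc
ABCC2: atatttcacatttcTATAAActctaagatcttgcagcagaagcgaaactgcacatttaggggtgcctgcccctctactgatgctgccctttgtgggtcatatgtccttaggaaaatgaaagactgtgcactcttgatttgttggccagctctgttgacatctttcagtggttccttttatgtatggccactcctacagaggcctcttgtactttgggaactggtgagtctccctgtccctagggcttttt

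In the ABCA1 window the DR4 match tgaccgatagtaacc spans bases 69 to 55 before the start, 3 GC boxes and 1 E-box lie further upstream and a TATAAA lies at bases 31 to 26. The ABCC2 window holds a TATAAA at bases 236 to 231 and no match to the other letters searched. ABCA1 was the only one of the 36 members with a promoter entry to hold the DR4 letters, which occur in 0.533% of 35116 RefSeq promoters of the same length. A match describes letters in a window and not a site in use. GC boxes were in 23 of the 36 members (63.9%, beside 42.6% of all promoters), E-boxes in 8 (22.2%, beside 6.34%) and TATAAA in 7 (19.4%, beside 10.7%). The letters TGACNNNGC, the core of the antioxidant response element, were in 9 (25%, beside 10.9%) and TGACTCA, the AP-1 site, in 1, ABCD2 (2.78%, beside 4.2%). A member counts when any of its listed starts holds a match, so members with several starts have more chances than a single promoter, and matches of different motifs may overlap. ABCC3 and ABCG1 were among the members with no entry in the promoters used here, so neither was searched for these letters.

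Lipid exporters other than ABCA1 differed little or moderately. ABCA3, which moves phospholipids into the lamellar bodies of lung cells, was at 7.07 on rLCC111 and 6.65 on BSA, a difference of 0.42 from a BSA level at the limit. ABCG1, which passes cholesterol to high-density lipoprotein and is an LXR target like ABCA1, was at 7.10 on rLCC111 and 6.96 on BSA, a difference of 0.14. ABCG4, its close relative in brain, also had a difference of 0.14, at 6.78 on rLCC111 and 6.64 on BSA. ABCA7, a relative of ABCA1 linked to phospholipid export and phagocytosis, was at 7.36 on rLCC111 and 7.27 on BSA, a difference of 0.09. Of the 5 lipid exporters above the limit, ABCA1 alone reached a difference of 0.5.

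The remaining 5 genes on the list of lipid exporters, which also holds the retinoid transporter ABCA4, had both arrays below the limit. ABCB4, the phosphatidylcholine exporter of bile, was at 5.20 on rLCC111 and 5.22 on BSA. ABCG5 and ABCG8, which form the sterol exporter of gut and liver as a pair, were at 5.35 and 6.03 on rLCC111 and at 5.30 and 6.03 on BSA. ABCA4, the retinoid transporter of photoreceptors, was at 5.69 on rLCC111 and 5.88 on BSA, and ABCA12, the lipid transporter of keratinocytes, at 5.07 on rLCC111 and 5.23 on BSA. The differences of these genes ran from -0.18 to 0.05, within 1 SD (0.18) of the receptor genes. The 10 genes on this list had a median difference of 0.07 as deposited and -0.01 after median centring and after quantile normalization. All genes had medians of 0.00, -0.08 and -0.06 in the same order.

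Multidrug and organic anion exporters divided into members with near-equal levels and a few that differed. ABCC1, the exporter of glutathione conjugates known as MRP1, was at 10.42 on both rLCC111 and BSA, and ABCC4, the cyclic nucleotide and prostaglandin exporter MRP4, at 9.35 on rLCC111 and 9.33 on BSA. ABCC5, or MRP5, another exporter of cyclic nucleotides, was at 9.33 on rLCC111 and 8.92 on BSA, a difference of 0.42 and a fold of 1.34. ABCC10, or MRP7, which exports taxanes among other drugs, was at 8.84 on rLCC111 and 8.54 on BSA, a difference of 0.30. This was 0.22 after median centring, 0.25 after quantile normalization and 0.29 after lowess. With ABCC3, 3 of the 6 exporters of this list above the limit had, as deposited, a difference of at least 0.3 upwards. ABCC2 alone had one downwards, and ABCC1 and ABCC4 differed by 0.01 each. Among all genes above the limit on at least 1 array, 6.48% were at least 0.3 higher and 5.41% at least 0.3 lower.

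The other 5 multidrug and organic anion exporters had both arrays below the limit in this line, unlike ABCC1. ABCB1, which encodes P-glycoprotein, was at 5.63 on rLCC111 and 5.52 on BSA. ABCG2, the breast cancer resistance protein, was at 5.84 on rLCC111 and 6.10 on BSA, a difference of -0.26. ABCB5, described in melanoma, was at 4.11 on rLCC111 and 4.06 on BSA. ABCC11, the exporter of apocrine glands, was at 6.14 on rLCC111 and 6.11 on BSA, and its relative ABCC12 was at 5.13 on both. The 11 members of this list had a median difference of 0.03 as deposited. It was -0.05 after median centring and just below 0 after quantile normalization. All genes had medians of 0.00, -0.08 and -0.06 in the same order.

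**Figure D2:**
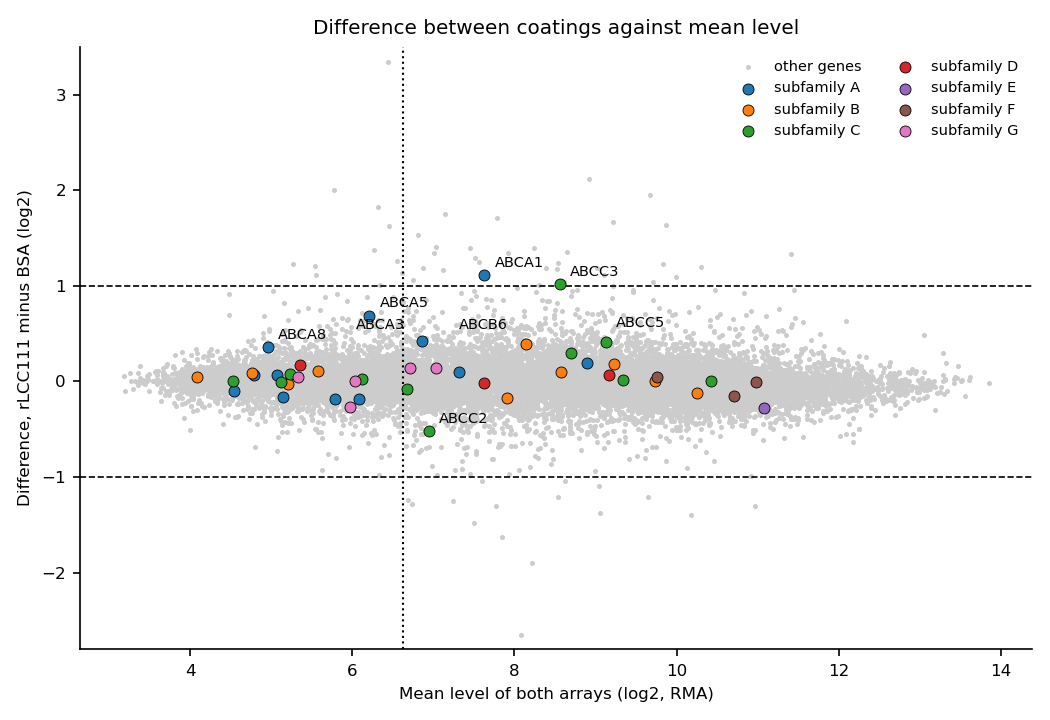
Difference between coatings (rLCC111 minus BSA, log2) against the mean level of both arrays (log2, RMA) for 18417 genes (grey) and 45 ABC genes coloured by subfamily, with dashed lines at 2-fold and a dotted line at the limit of 6.63. ABCA1 at 1.11 and ABCC3 at 1.02 lie above the upper dashed line, and ABCC2 at -0.52 is the lowest member.

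In subfamily A, ABCA2, a transporter of late endosomes and of myelinating cells, was at 8.99 on rLCC111 and 8.80 on BSA, a difference of 0.19. Together with ABCA1, ABCA3 and ABCA7, it made the 4 members of this subfamily above the limit, whose median was 0.31, against 0.08 for all 12. The 8 members below the limit had a median of -0.02. ABCA13, a very large and little studied member, was at 5.99 on rLCC111 and 6.17 on BSA.

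ABCA8, ABCA9, ABCA6, ABCA10 and ABCA5 follow each other as protein-coding genes on chromosome 17 in GRCh38.p14. All 5 had both arrays below the limit. ABCA5 and ABCA8, at the ends of the row, had differences of 0.69 and 0.36, while ABCA9, ABCA6 and ABCA10 had 0.07, 0.06 and -0.10. ABCA8 was at 5.14 on rLCC111 and 4.78 on BSA. In the other rows of members, ABCC12 and ABCC11 on chromosome 16, ABCG5 and ABCG8 on chromosome 2 and ABCB4 and ABCB1 on chromosome 7, neighbours differed from each other by at most 0.13 in their differences, and all were below the limit.

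Subfamily B holds the peptide transporters of antigen presentation and the transporters of the mitochondrion. TAP1 and TAP2, which pair to pump peptides into the endoplasmic reticulum for MHC class I, had differences of opposite sign under each scaling. TAP1 was at 9.32 on rLCC111 and 9.14 on BSA, a difference of 0.18, and TAP2 at 10.19 on rLCC111 and 10.31 on BSA, a difference of -0.12. The 3 sequences of TAP1 gave identical values and those of TAP2 gave differences from -0.16 to -0.12. ABCB9, a lysosomal peptide transporter related to TAP, was at 7.82 on rLCC111 and 7.99 on BSA, a difference of -0.17.

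Among the mitochondrial members, ABCB6, a porphyrin transporter also found in other membranes, was at 8.33 on rLCC111 and 7.94 on BSA, a difference of 0.39. ABCB8, linked to mitochondrial iron export, was at 8.63 on rLCC111 and 8.52 on BSA, a difference of 0.10, and its 3 sequences gave 0.04 to 0.11. ABCB10, which supports haem synthesis in red cell precursors, was at 9.73 on both. ABCB11, the bile salt export pump of hepatocytes, was below the limit at 4.81 on rLCC111 and 4.72 on BSA. No member of subfamily B differed by 0.5. The median of its 10 genes was 0.07 as deposited and -0.01 after median centring, beside 0.00 and -0.08 for all genes.

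The remaining members differed by less than 0.3. In subfamily D, ABCD3, which carries branched-chain and bile acid precursors into peroxisomes, was at 9.20 on rLCC111 and 9.13 on BSA, and ABCD4, which releases cobalamin from lysosomes, at 7.61 on rLCC111 and 7.63 on BSA. ABCD2, a peroxisomal importer of very long-chain fatty acids, was below the limit at 5.45 on rLCC111 and 5.27 on BSA. The sulphonylurea receptors, which regulate ATP-sensitive potassium channels, were at 6.64 on rLCC111 and 6.72 on BSA for ABCC8, and at 5.27 on rLCC111 and 5.19 on BSA for ABCC9. ABCC13, a pseudogene in humans, was at 4.53 on both.

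The soluble members were all above the limit, and the largest difference among them was on the lower side. ABCE1, which splits ribosomes for recycling, was at 10.94 on rLCC111 and 11.22 on BSA, a difference of -0.28 and a fold of 0.823. ABCF2 was at 10.63 on rLCC111 and 10.78 on BSA, a difference of -0.15. ABCF1, which takes part in translation initiation, was at 10.98 on both, with its 3 sequences identical, and ABCF3 was at 9.78 on rLCC111 and 9.73 on BSA. The median of these 4 genes was -0.08 as deposited, beside 0.00 for all genes. Their median was -0.03 after lowess, -0.05 after quantile normalization and -0.16 after median centring, beside -0.02, -0.06 and -0.08 for all genes. The 9 genes of ribosome recycling and translation listed with them had a median of -0.11, from -0.27 in EIF2S2 to 0.01 in PELO. Of these, 7 were below 0 and 2 above as deposited, beside 46.6% of all genes below 0. The median of these 9 genes was -0.07 after lowess, -0.08 after quantile normalization and -0.19 after median centring. All genes had medians of -0.02, -0.06 and -0.08 under the same scalings.

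Genes that work with the transporters differed by less than 0.5 throughout, in 69 measured of 82 listed. At 0.3 or more, 5 (7.25%) were higher on rLCC111, beside 5.38% of all genes, and 2 (2.9%) were lower, beside 4.41%. Among 12 LXR receptors and other LXR targets, none reached 0.5. As deposited, 9 had a difference above 0, beside 46.2% of all genes, and this count was not repeated under the other scalings. The receptor NR1H3 had 0.12, the lipogenic factor SREBF1 0.12, the apolipoprotein APOE 0.12, the ubiquitin ligase MYLIP 0.09 and the desaturase SCD 0.07. Also above 0 were FASN with 0.17, SMPDL3A with 0.08 and the receptor RXRA with 0.07. The 3 genes below 0 were PLTP, the phospholipid transfer protein, at 6.20 on rLCC111 and 6.44 on BSA, a difference of -0.25 with both levels below the limit, the apolipoprotein APOC1 with -0.16, also below the limit, and the receptor RXRB with -0.02. LPCAT3, an acyltransferase of phospholipids, had the largest, at 10.77 on rLCC111 and 10.44 on BSA, a difference of 0.33. The median of this list was 0.09 as deposited and 0.01 after median centring, beside 0.00 and -0.08 for all genes.

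Of 10 genes of sterol supply and efflux, LIPA, the lysosomal acid lipase, was at 9.67 on rLCC111 and 9.28 on BSA, a difference of 0.39, and INSIG1, which retains the sterol sensor in the endoplasmic reticulum, had 0.38. SOAT1, which esterifies cholesterol for storage, was at 9.77 on rLCC111 and 10.10 on BSA, a difference of -0.33. This list had 5 genes above 0 and 5 below, with a median of 0.00. Among 12 drug sensors and conjugating enzymes, AHR, a receptor of aromatic compounds, had a difference of 0.37 and GCLM, a subunit of the enzyme that starts glutathione synthesis, -0.32, with a median of 0.00.

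Among 10 partners of TAP in MHC class I loading, differences ran from -0.02 to 0.13, with TAPBP, which encodes tapasin, at 0.10. Among 7 iron-sulphur and haem genes, SLC25A37, the mitochondrial iron importer mitoferrin, had 0.32. The median of these 7 was 0.08 as deposited and just below 0 after median centring, beside 0.00 and -0.08 for all genes. The 7 genes of peroxisomes and cobalamin had a median of -0.02. KCNJ8 and KCNJ11, the pores to which the sulphonylurea receptors bind, were below the limit, at 5.49 and 6.34 on rLCC111 and at 5.51 and 6.44 on BSA.

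**Figure D3:**
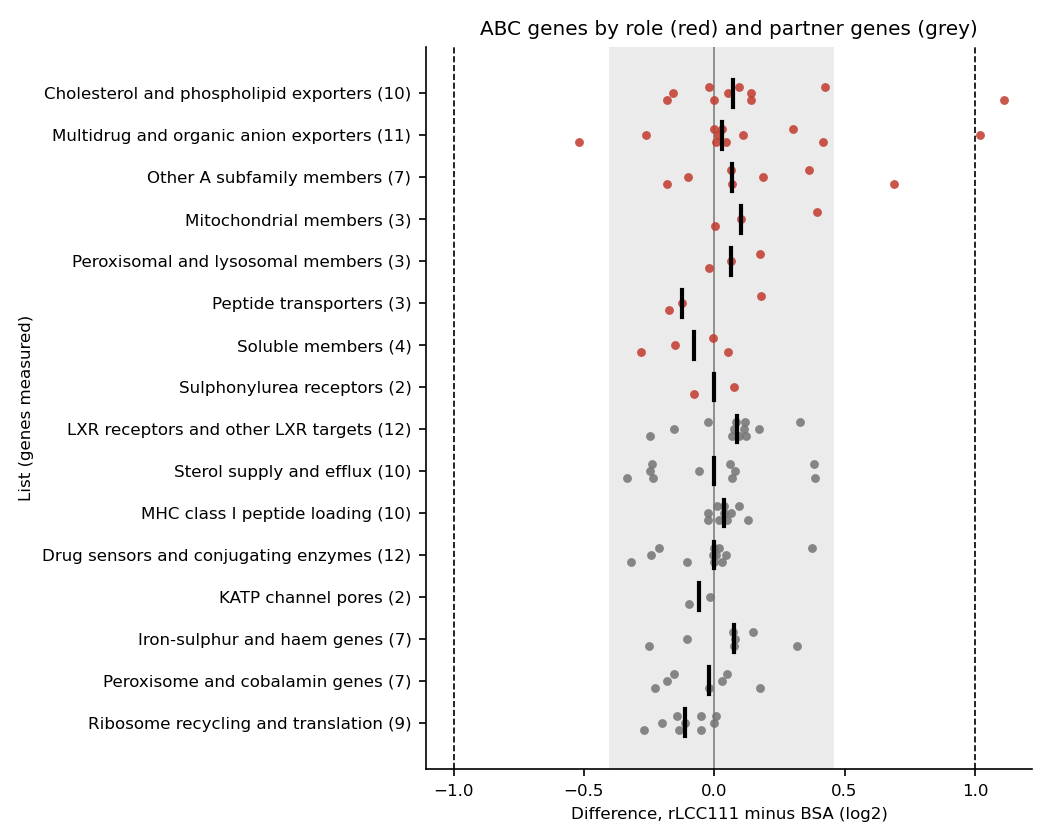
Difference between coatings (rLCC111 minus BSA, log2) of the ABC genes by role (red points), without ABCB11 and ABCC13, and of each gene on 8 lists of partner genes (grey points), with the number measured beside each list, black bars at the medians, dashed lines at 2-fold and a grey band from -0.40 to 0.46 for the middle 95% of the 12665 genes over the limit on at least 1 array. ABCA1, ABCC3, ABCA5 and ABCC2 lie outside the band and all partner genes inside it.

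The promoter windows of members above and below the limit differed in CpG content, a property used neither to choose the members nor to set the limit. The 21 members above the limit with a promoter entry had a median of 22 CpG dinucleotides in the 250 bases before the start, and the 15 below it had a median of 3.5, where a gene with several starts was given the median over them. The median of all promoters was 11, and 20 of the 21 members above the limit reached it, against 3 of the 15 below. Of all 35116 promoters, counted singly and not by gene, 17656 reached it. The same split by the limit was not made for all genes, so these counts do not show a trait particular to the ABC genes. The exceptions were ABCC2, with 1 CpG at a level above the limit, and ABCA5, ABCG2 and ABCC9, with 42, 27 and 15 CpG at levels below it. ABCA1 had 16. This is a description across genes, which are not independent replicates, and array levels of different genes also depend on their probes.

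**Figure D4:**
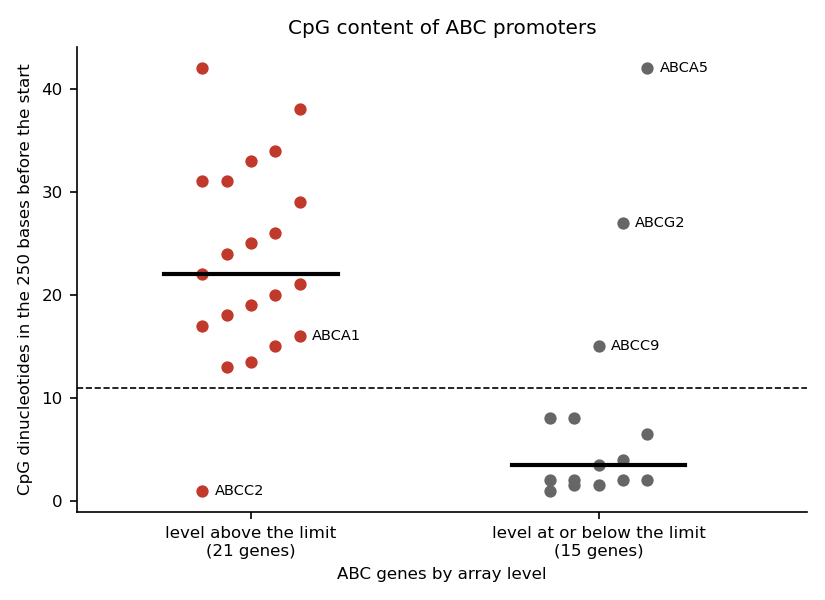
CpG dinucleotides in the 250 bases before the RefSeq start (vertical; median over starts) of 21 ABC genes with a level above the limit of 6.63 (red) and 15 at or below it (grey), with black bars at the group medians of 22 and 3.5 and a dashed line at 11, the median of all promoters. ABCC2 is the only red point below the dashed line.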

How the data were processed

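Total RNA of HT1080 cells on rLCC111 and on BSA was hybridised to 1 array each. The authors converted the scans with RMA in Affymetrix Expression Console and deposited log2 levels of 33297 sequences. The RMA settings, the software version and the genome build of the array are not given in the sources used here.

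Gene symbols came from the platform annotation and were brought up to date by gene ID with RefSeq of GRCh38.p14. A symbol was single for 19460, multiple for 1754 and absent for 12083, and only single ones were used. Some genes of the family are not reported here. Where several sequences shared a symbol, the brightest on average stood for the gene. The methods name limma, which could not be fitted with 1 array per coating. So lists are described by counts and medians beside those of all genes, at log2 differences of 1, 0.5 and 0.3.

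The family and the lists were chosen with earlier results of these data known. Named in full were all lipid and multidrug exporters, sulphonylurea receptors and soluble members, and other members differing by at least 0.3 above the limit. Partner genes were to be named at 0.5, which none reached, so those named were chosen after their values were seen, as were the other members and the promoter motifs. Alternatives were median centring, lowess (span 0.2, 3 robustness iterations), quantile normalization, the mean over sequences, both filters on the limit and unupdated symbols. Counting was tested on simulated data. Promoters are RefSeq windows of GRCh38.p14. Python 3.11.15, numpy 2.4.6, pandas 2.3.3, statsmodels 0.14.6 and matplotlib 3.10.9 were used.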

Additional observations from a re-analysis of the deposited data

How the results depend on the processing

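No paired analysis was possible because there is 1 array per coating, and no replicate could be left out. Of 474 values recomputed under the 7 alternatives, 470 kept their size within 0.18, the SD of the receptor genes, or within 1.5 times for counts. Many of them could not have moved further. Median centring shifts every difference by the same 0.08, filters leave the difference of a member as it is, and only 4 members had several sequences. The 470 is therefore no measure of robustness. The largest move of a member was 0.09, after quantile normalization. The count of members at least 2-fold higher was 2 as deposited and 1 after median centring and after quantile normalization, where ABCC3 fell short of 2-fold. The median of subfamily A was 0.31 with the filter on the brighter array and with that on both arrays, which keep 4 of its 12 members. Filters gave no value for members below the limit. Values near 0 changed sign: 11 members and 12 list medians after median centring, 5 and 6 after quantile normalization, and 1 of each after lowess. No member differing by 0.1 or more changed sign.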

Other observations

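CFTR, which encodes the chloride channel of subfamily C and whose symbol lies outside the naming rule of the family, was listed at 4.42 on rLCC111 and 4.42 on BSA, below the limit of 6.63. The pseudogene ABCA15P was at 6.88 on rLCC111 and 6.83 on BSA, and ABCA11P at 5.41 on rLCC111 and 5.47 on BSA. A difference of exactly 0, as in ABCC13, ABCG8 and CFTR, was found in 1325 of the 18417 genes (7.19%), and in 76 of the 373 receptor genes.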
